A study of Arabidopsis thaliana with 12 samples.

Results

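The genes described here are 41 cysteine-rich receptor-like kinase (CRK) loci of Arabidopsis thaliana, chosen by locus ID from a table of 33618 gene IDs, in which all 41 were present. They comprise the tandem array AT4G23130 to AT4G23320 on chromosome 4 (chr4:12117491-12191704 in TAIR10.1, 74.2 kb), with 20 CRK genes from CRK5 to CRK24, and 21 CRKs elsewhere. RNA came from whole rosettes of 4 genotypes with 3 libraries each: wild type (WT), the vtc2-4 mutant (vtc2), the vtc4-4 mutant (vtc4) and a line labelled vtc2/OE-VTC2 L15 (OE), read here as vtc2 plants carrying an added VTC2 construct. VTC2 and VTC4 encode GDP-L-galactose phosphorylase and L-galactose 1-phosphate phosphatase, both enzymes of ascorbate (vitamin C) synthesis. Every library pooled 8 rosettes of 4-week-old untreated plants, kept in days of 8 h light at 22 °C and frozen 30 min after the light came on. Each mutant is represented by 1 allele and OE by 1 line, whose promoter is not given in the sources used here.

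CRKs sit in the plasma membrane. Outside the cell they carry cysteine-rich DUF26 domains, and inside it a serine/threonine kinase domain. Many CRK genes are known to be induced by pathogens, salicylic acid and ozone, and the family is studied as a link between reactive oxygen outside the cell and immune signalling. Ascorbate is an abundant soluble antioxidant of the leaf, in the apoplast as well as in the cell.

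Loss of VTC2 went with higher levels of a part of the family. CRK4, CRK7, CRK13 and CRK36 rose in vtc2 against WT, and CRK21 fell. Each of these 5 genes lost its call when certain single libraries were left out, as described below. The stretches of DNA directly upstream of these 5 genes are shown because they belong to the members that carry the comparison with WT. They are the 250 bases before the annotated gene start, read from the TAIR10.1 genome with the RefSeq annotation of that build, 5′ to 3′ on the gene's strand. Capitals mark the letters TTGAC, or GTCAA where the match lies on the other strand; TTGAC is the core of the W-box, to which WRKY factors bind.
CRK4, chr3:16866262-16866511, minus strand: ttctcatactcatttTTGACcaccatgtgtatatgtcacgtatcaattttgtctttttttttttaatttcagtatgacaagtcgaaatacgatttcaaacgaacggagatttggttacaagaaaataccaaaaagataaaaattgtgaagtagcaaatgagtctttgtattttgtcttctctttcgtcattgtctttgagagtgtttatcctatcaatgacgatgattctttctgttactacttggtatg
CRK7, chr4:12125414-12125663, plus strand: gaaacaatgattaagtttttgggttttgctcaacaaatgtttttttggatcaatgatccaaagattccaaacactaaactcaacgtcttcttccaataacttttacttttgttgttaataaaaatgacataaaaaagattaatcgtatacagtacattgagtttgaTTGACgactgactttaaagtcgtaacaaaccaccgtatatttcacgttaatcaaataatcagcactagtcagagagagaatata
CRK13, chr4:12151639-12151888, minus strand: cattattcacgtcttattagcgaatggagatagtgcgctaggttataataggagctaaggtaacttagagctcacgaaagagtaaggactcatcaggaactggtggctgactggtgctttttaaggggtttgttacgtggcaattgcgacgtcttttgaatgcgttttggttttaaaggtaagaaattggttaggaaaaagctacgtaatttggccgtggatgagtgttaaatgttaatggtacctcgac
CRK36, chr4:2234690-2234939, minus strand: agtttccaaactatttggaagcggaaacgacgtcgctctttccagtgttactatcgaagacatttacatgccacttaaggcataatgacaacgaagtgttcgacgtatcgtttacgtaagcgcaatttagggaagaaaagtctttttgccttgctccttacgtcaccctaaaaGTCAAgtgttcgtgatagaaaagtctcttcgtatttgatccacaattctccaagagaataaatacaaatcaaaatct
CRK21, chr4:12180937-12181186, minus strand: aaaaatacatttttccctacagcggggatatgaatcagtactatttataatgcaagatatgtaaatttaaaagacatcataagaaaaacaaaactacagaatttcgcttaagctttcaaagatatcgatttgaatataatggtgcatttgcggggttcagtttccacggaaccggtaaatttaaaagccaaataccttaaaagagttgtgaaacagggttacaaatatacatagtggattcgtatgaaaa

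The core TTGAC was found upstream of 30 of the 41 CRKs (73.2%), against 44.9% of 27441 protein-coding genes of the table with a window of the same length. A window held 1.42 matches on average over the members and 0.633 over all these genes. With 20 of the 41 members in 1 tandem array, the windows need not be independent, and likeness between them was not tested. CRK11, in the array, had the most matches, 6, and was not called in any comparison. Among the 5 genes printed above, CRK4, CRK7 and CRK36 each held 1 match, and CRK13 and CRK21 held none. Over all 11 members called in any comparison, 7 had a match, and over the other 30 members 23 had one. The letters TGACG, the core to which TGA factors bind, occurred upstream of 14 of 41 members (34.1%) and 18.6% of all genes. TGACG shares 4 letters with TTGAC, so 1 stretch TTGACG counts for both, as it does upstream of CRK7. In 9 of the 41 windows the stretch reached into a neighbouring gene, none of them printed here. A match is a stretch of letters, not a shown binding site.

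Values are FPKM (fragments per transcript length and sequencing depth), a level that can be set side by side between genes because it is scaled for length. Depth is unknown. From the steps of low values, 1 fragment was worth 0.913 to 1.01 times its worth in WT replicate 1. Only ratios near 1 were searched, so a large difference in depth could not have been found this way. Pairs of libraries correlated across tested genes at 0.979 to 0.989 inside a genotype and 0.971 to 0.990 across genotypes, on log2(FPKM + 1), where genes are no independent replicates. VTC2 stood at 819 ± 77.4 FPKM (mean ± SD, n = 3, as throughout) in WT, 17.2 ± 2.79 in vtc2, 783 ± 65.1 in vtc4 and 383 ± 24.6 in the libraries labelled OE, and VTC4 at 28.3 ± 2.67 in WT and 0.373 ± 0.0837 in vtc4. The libraries labelled OE thus had more VTC2 transcript than vtc2 and less than WT, and every direction below that uses them is a direction of those libraries. The leaf genes CAB3, LHCB2.1 and CA1 stood together at 7732 to 9700 FPKM. RBCS1A and RCA, which leaves use strongly, were listed at 0 in all 12 libraries, so a 0 in this table can be a failed estimate. Summed root markers were 11.0 to 17.5 FPKM in WT and 25.1 to 31.6 in vtc2, 22.5 to 30.6 in vtc4 and 18.8 to 21.5 in the libraries labelled OE, nearly all from PYK10, which rose in vtc2 (log2 fold change 0.95, SE 0.15, adjusted p of 0.0095 by limma). Flower markers summed to at most 0.906, and guard cell markers to 25.0 to 26.6 in WT and 19.0 to 24.1 in vtc2. Of the 3 guard cell markers, MYB60 was called lower in vtc2 with no overlap (log2 fold change -0.41, SE 0.097, adjusted p of 0.0453 by limma). Their part in the CRK values was not tested. In pooled tissue, a change in the number of cells of a type and a change in RNA per cell cannot be told apart.

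The family spanned a wide range of levels in WT rosettes. CRK40 was highest at 59.3 ± 4.97 FPKM, followed by CRK21 at 41.5 ± 1.94, CRK10 at 36.0 ± 2.82, CRK18 at 27.6 ± 1.00, CRK41 at 21.1 ± 1.96 and CRK4 at 20.8 ± 5.21. These were the 6 members with at least 20 FPKM in WT; 24 stood between 1 and 20, and 11 below 1. CRK40, CRK21, CRK10 and CRK18 were each separated in WT from the next gene in this order, as the lowest WT library of the higher gene lay above the highest of the lower one. CRK41 and CRK4 overlapped, and so did most neighbours further down. Members of the array had a median WT level of 4.57 FPKM and the others 2.08.

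**Figure D1:**
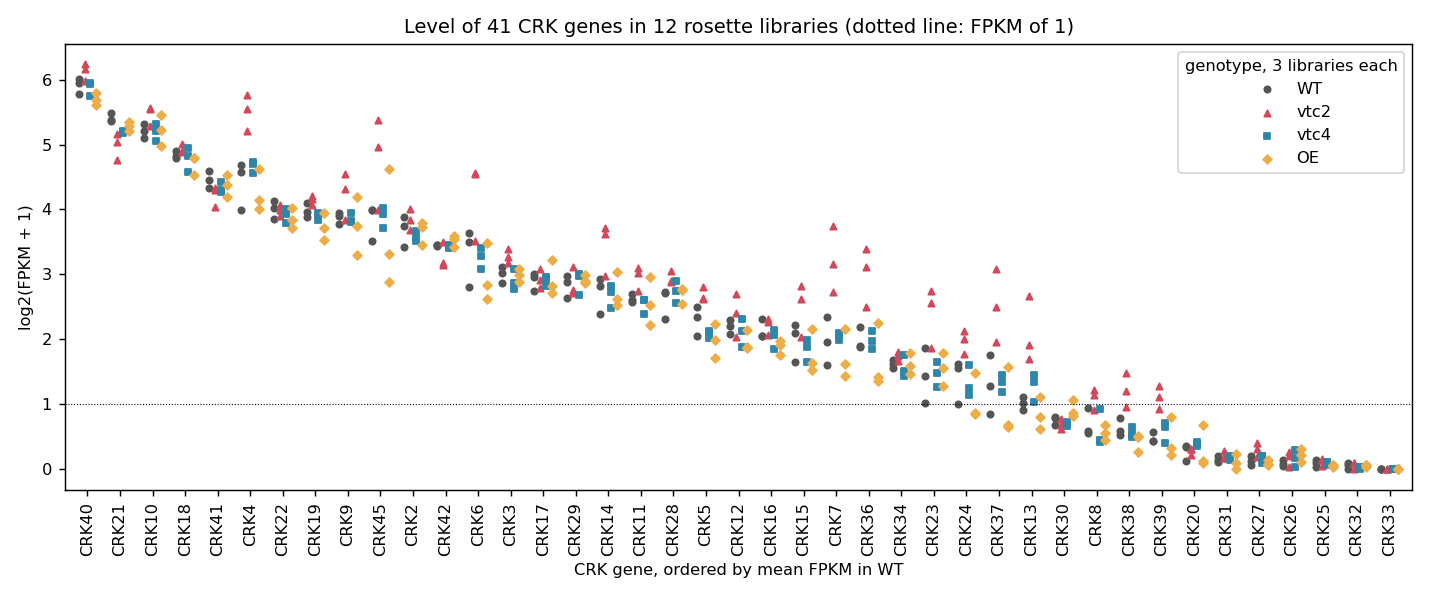
Level of the 41 CRK genes as log2(FPKM + 1) in each of the 12 libraries, ordered by mean FPKM in WT, with 3 points per genotype. The vtc2 libraries stand above the others for CRK4 and, at lower levels, for CRK7, CRK36, CRK37 and CRK13; CRK33 is listed at 0 throughout.

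Of the 41 members, 30 reached an FPKM of 1 in at least 3 libraries and were tested, 18 in the array and 12 elsewhere. None of the 30 passed through the libraries of 1 genotype alone. The 11 others were CRK8 and CRK20 in the array, and CRK25, CRK26, CRK27, CRK30, CRK31, CRK32, CRK33, CRK38 and CRK39. CRK33 was listed at 0 in all libraries. CRK20, whose overexpression is known to trigger cell death, ran from 0.0658 to 0.599 FPKM. CRK25, CRK26, CRK27, CRK31 and CRK32 did not exceed 0.324 FPKM in any library, and CRK30 ran from 0.538 to 1.08.

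CRK8, CRK38 and CRK39 reached 1 FPKM in vtc2 libraries only, 2 of 3 each, and stayed untested. CRK38 was at 0.512, 0.723 and 0.444 FPKM in WT replicates 1 to 3 and at 0.935, 1.31 and 1.78 in those of vtc2. CRK39 was at 0.486, 0.353 and 0.3596 in WT and at 0.901, 1.16 and 1.44 in vtc2. For both, every vtc2 library lay above every WT library. CRK8 was at 0.920, 0.481 and 0.509 in WT and at 0.884, 1.32 and 1.20 in vtc2, which overlap.

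Differences were tested with limma on log2(FPKM + 1), with all 12 libraries and all 17290 genes in 1 fit, two-sided. Log2 fold changes hold the added 1, so they come out too small for weakly expressed genes. Calls needed an adjusted p (Benjamini-Hochberg, all tested genes of a comparison) below 0.05.

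In vtc2 against WT, 4 of 30 tested CRKs were called higher, where 0.798% of all tested genes were, and 1 was called lower, where 2.23% were. Over all genes these shares are 138 higher and 385 lower, and after rescaling to TPM 249 and 183. The median log2 fold change was 0.31 over the 30 members and 0.00 over all genes, and 26 of the 30 were positive (50.4% of all genes). An unadjusted p below 0.05 was found for 17 (19.7% of all genes). A rise of at least 1.5-fold in FPKM + 1 was reached by 9 members, or 30% (2.01% of all genes), and a fall of that size by 0 (0.682%). In 12 members, or 40%, all vtc2 libraries lay above all WT libraries (10.4% of all genes), and in 2 all lay below (12.6%).

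CRK4 (AT3G45860, chromosome 3), whose forced expression is known to cause cell death in leaves, was at 22.9, 24.7 and 14.9 FPKM in WT replicates 1 to 3. The vtc2 libraries had 36.0, 45.7 and 53.1, all above WT. It rose from 20.8 ± 5.21 to 44.9 ± 8.58 FPKM (log2 fold change 1.09, SE 0.19, adjusted p of 0.016 by limma). In vtc4 it was at 25.6, 25.0 and 22.6, and in the libraries labelled OE at 16.8, 23.5 and 15.1, within or close to the range of WT.

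CRK7 (AT4G23150), in the array, is known for protecting plants against reactive oxygen outside the cell. WT libraries had 2.90, 4.09 and 2.05 FPKM, and vtc2 libraries 5.60, 7.97 and 12.4, with no overlap. The log2 fold change was 1.24 (SE 0.25, adjusted p of 0.0253 by limma). The vtc4 libraries, at 2.98, 3.19 and 3.30, lay inside the WT range.

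CRK13 (AT4G23210), also in the array, is known to raise salicylate levels and resistance to Pseudomonas when overexpressed. It was low in WT, at 1.03, 0.893 and 1.17 FPKM. In vtc2 it was at 2.24, 2.79 and 5.35, so the groups were separate, with replicate 3 far above the other two (log2 fold change 1.08, SE 0.22, adjusted p of 0.0251 by limma). The vtc4 libraries had 1.74, 1.05 and 1.55. Of its 75-base windows, 11.4% occur identically in CRK22, so a part of its reads could have been shared between both; CRK22 itself differed by -0.02 (SE 0.097).

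CRK36 (AT4G04490) is known for interacting with the immune kinase BIK1 and with CRK45. It was at 2.70, 3.56 and 2.75 FPKM in WT and at 4.64, 7.71 and 9.46 in vtc2 (log2 fold change 1.01, SE 0.24, adjusted p of 0.0483 by limma), again with no overlap. In vtc4 it was at 2.94, 2.61 and 3.39. Its neighbour CRK37 (AT4G04500) had a fold change of similar size that did not pass the test: 2.38, 1.44 and 0.796 FPKM in WT and 2.91, 4.65 and 7.49 in vtc2 (1.22, SE 0.31, adjusted p of 0.0563 by limma).

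CRK21 (AT4G23290), in the array, was the called member that went the other way. It was at 43.7, 40.1 and 40.6 FPKM in WT and 34.7, 31.9 and 26.2 in vtc2, all below WT (log2 fold change -0.42, SE 0.085, adjusted p of 0.0252 by limma). After rescaling to TPM the fall was -0.34 (adjusted p by limma = 0.058), and over all alternatives adjusted p ran from 0.0115 to 0.11. CRK41, elsewhere on chromosome 4, was likewise separate and below WT, from 21.1 ± 1.96 to 17.7 ± 1.97 (-0.24, SE 0.1, adjusted p of 0.22 by limma), and did not pass the test.

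Other members differed as well but did not pass the test. CRK45 (AT4G11890), a kinase without the cysteine-rich outer part, was at 14.89, 14.97 and 10.5 FPKM in WT and at 14.98, 30.2 and 40.4 in vtc2. The vtc2 replicate 1 stood barely above the highest WT library (log2 fold change 0.94, SE 0.40, adjusted p of 0.217 by limma). CRK14 was at 6.04, 6.65 and 4.24 in WT and 6.83, 11.3 and 12.1 in vtc2, separate but not called (0.72, SE 0.20, adjusted p of 0.0818 by limma). CRK15 was at 3.65, 3.30 and 2.15 in WT and 3.11, 6.09 and 5.19 in vtc2, which overlap. CRK23 was at 1.71, 2.64 and 1.02 in WT and 2.63, 5.72 and 4.92 in vtc2, where the lowest vtc2 library lay just under the highest of WT (0.95, SE 0.25, adjusted p of 0.0593 by limma). CRK28, which is known to associate with the co-receptor BAK1, had a log2 fold change of 0.36 (SE 0.12), CRK3 of 0.28 (SE 0.099) and CRK2, known to phosphorylate the oxidase RBOHD, of 0.16 (SE 0.13). For CRK28 and CRK3 every vtc2 library lay above every WT library, while the groups of CRK2 overlapped. None of these was called.

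**Figure D2:**
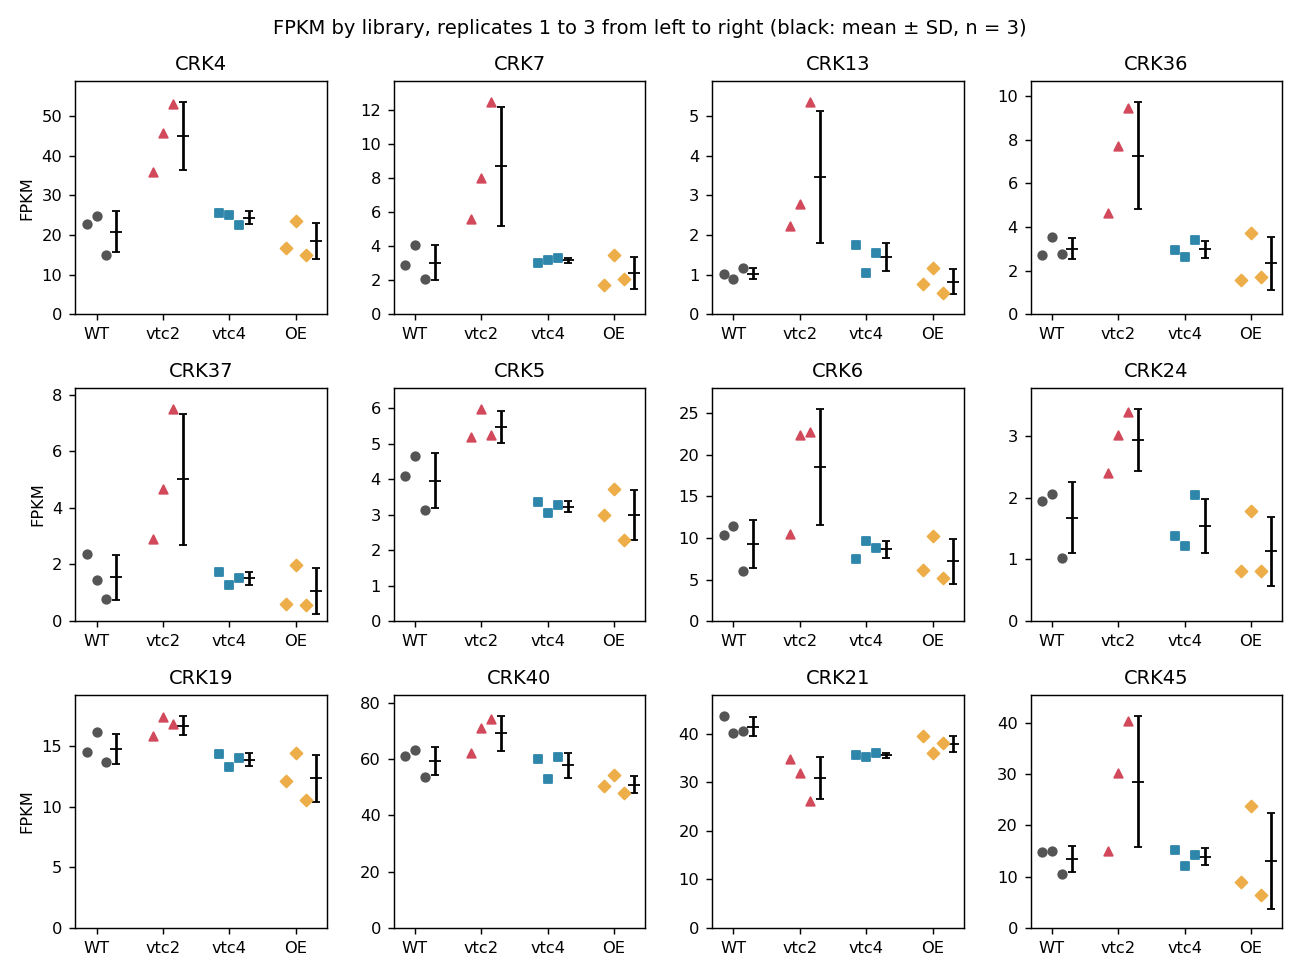
FPKM of 12 CRK genes in each library, replicates 1 to 3 from left to right within a genotype, with the mean ± SD of n = 3 in black. For CRK4, CRK7, CRK13, CRK36 and CRK37 the 3 vtc2 points lie above the WT points, and for CRK21 they lie below. In the libraries labelled OE, replicate 2 is the highest for every gene shown except CRK21.

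Along the array the size of the difference varied from gene to gene. At the start, CRK5, CRK6 and CRK7 had log2 fold changes of 0.39, 0.89 and 1.24 in vtc2 against WT. CRK9, CRK10, CRK11 and CRK12 followed with 0.35, 0.26, 0.33 and 0.19. CRK13, CRK14 and CRK15 had 1.08, 0.72 and 0.51. From CRK16 to CRK19 the values were 0.08, 0.03, 0.10 and 0.17, and CRK21 and CRK22 had -0.42 and -0.02. At the far end CRK23 and CRK24 had 0.95 and 0.57. Of these 18 genes only CRK7, CRK13 and CRK21 were called. Some genes here share sequence. The annotated loci of CRK16 and CRK17 overlap by 1190 bases on the same strand, which is the same DNA listed for both. Of the 75-base windows of CRK16, 29.0% occur in another gene. Of CRK6, 16.8% do, mainly in CRK8. CRK7, CRK4, CRK36, CRK37 and CRK21 had no window in common with any other annotated gene.

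**Figure D3:**
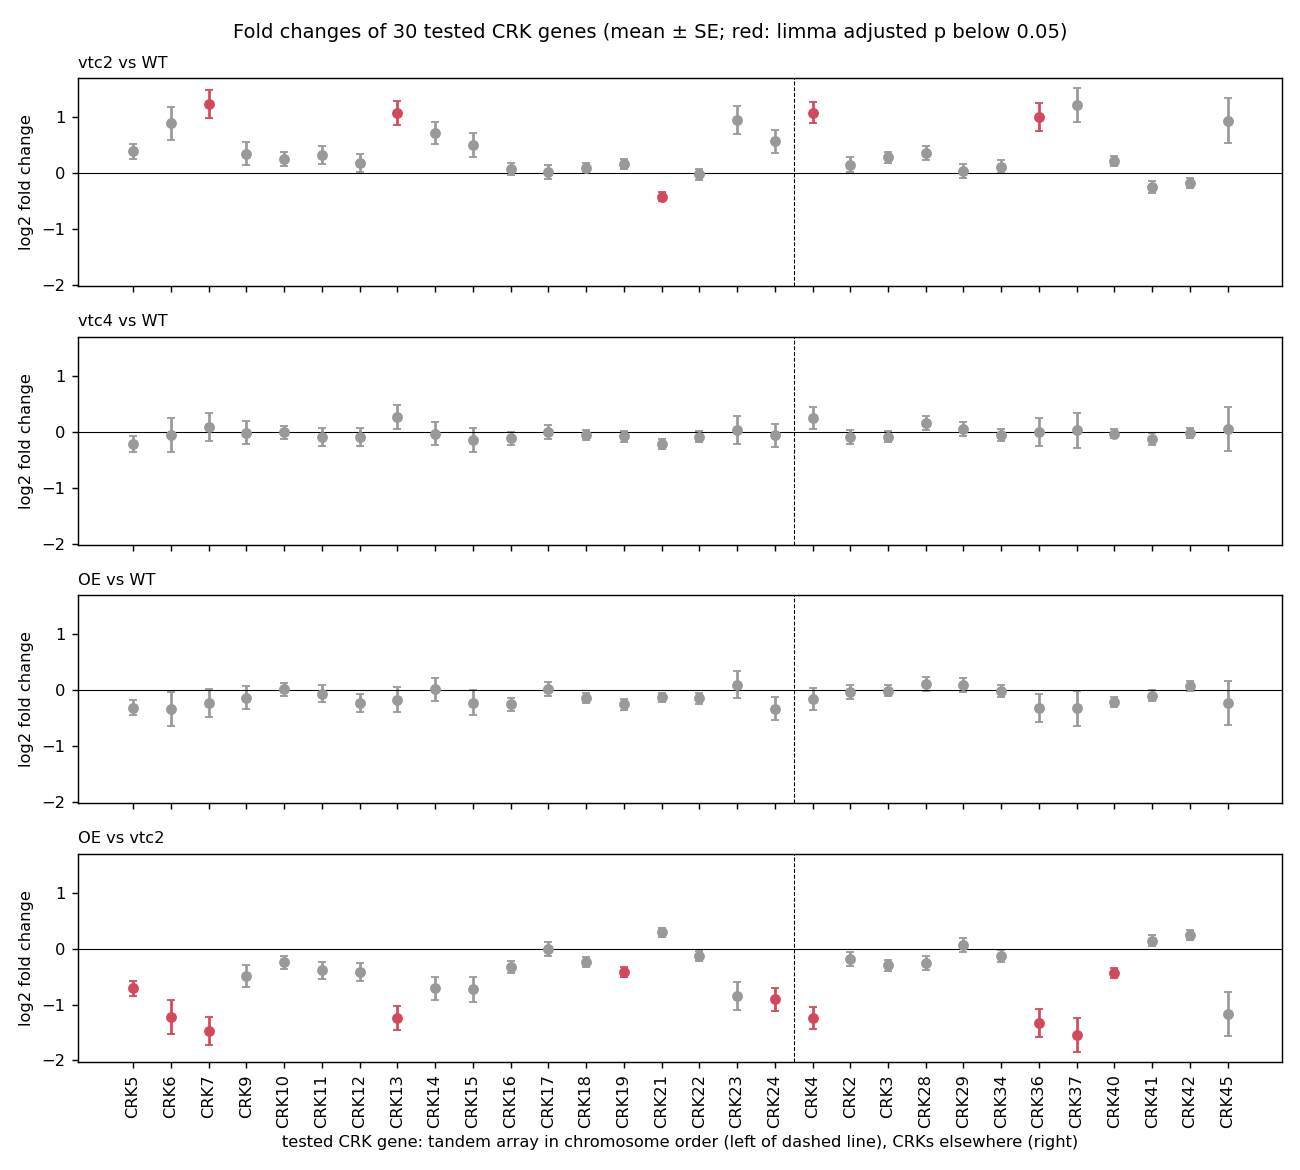
Log2 fold change ± SE of the 30 tested CRK genes in vtc2, vtc4 and OE against WT and in OE against vtc2, with the array in chromosome order left of the dashed line. Red points passed the limma adjusted p: 5 in the top panel, 0 in the 2 middle panels and 10 in the bottom panel.

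The calls rested on few libraries. CRK4 lost its call without WT replicate 3, vtc2 replicate 2 or vtc2 replicate 3, and over all alternatives its adjusted p by limma ran from 0.0128 to 0.0756. CRK7 and CRK21 also lost it without WT replicate 1, and CRK13 without any of the WT libraries (up to 0.108, 0.11 and 0.0897). CRK36 kept its call only without vtc2 replicate 1 or OE replicate 2, among the 12 fits that left out a library (from 0.0165 to 0.176 over all alternatives). Against 5 called with all libraries, 0 were called without WT replicate 3, without vtc2 replicate 2 or without vtc2 replicate 3, 1 without WT replicate 1, and 10 without vtc2 replicate 1. Calls over all genes moved as well, from 523 to 123, 126, 79, 257 and 727 in these fits. With WT and vtc2 alone in the fit, 0 were called by limma (adjusted p from 0.0756 to 0.11 for the 5 genes), as it was then for all but 13 genes of the table.

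Against vtc4, the other ascorbate mutant, the same members of vtc2 were set side by side, which tests whether the mutants differ. CRK7 rose in vtc2 against vtc4 (log2 fold change 1.16, SE 0.25, adjusted p of 0.0489 by limma), the 1 call among 30 members, with adjusted p from 0.018 to 0.164 over the alternatives (0.463% of all tested genes were called higher and 0.902% lower). These shares are 80 and 156 genes, and after rescaling to TPM the balance turned, to 202 and 117. For CRK4 the log2 fold change was 0.84 (SE 0.19, adjusted p of 0.0567 by limma), for CRK5 0.61 (SE 0.14, adjusted p of 0.0504 by limma), for CRK36 1.01 (SE 0.24, adjusted p of 0.063 by limma) and for CRK13 0.81 (SE 0.22, adjusted p of 0.0791 by limma), all short of the threshold. In 16 of the 30 members all vtc2 libraries lay above all vtc4 libraries (13.9% of all genes), and in 1, CRK21, all lay below (13.7%). The median over the members was 0.32, and 0.00 over all genes. Without vtc2 replicate 1, 10 members were called and the median was 0.44, while calls over all genes went from 236 to 728. The count was 4 without OE replicate 2, 3 without WT replicate 3 (382 over all genes) and 2 without WT replicate 2. It was 0 without WT replicate 1, OE replicate 1, vtc2 replicate 2 or 3, or any single vtc4 library. Over all genes 98 were called without OE replicate 1, and 7 to 15 without a vtc4 library or vtc2 replicate 2 or 3. With the replicate number as a block, which the labels do not tie to a shared batch, 3 members were called.

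No CRK was called in vtc4 against WT by limma, 0 of 30 (0.0347% of all tested genes), and 1, CRK21, had an unadjusted p below 0.05 (4.86% of all genes). CRK21 was at 35.5, 35.1 and 36.1 FPKM in vtc4, all below the lowest WT library at 40.1 (log2 fold change -0.21, SE 0.085). No other member lay wholly below WT (5.23% of all genes did). The largest positive values were those of CRK13 (0.26, SE 0.22) and CRK4 (0.25, SE 0.19). The median over members was -0.05, and it turned to 0.01 without vtc4 replicate 2. A p that misses the threshold does not show that vtc4 and WT had equal levels.

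In the libraries labelled OE, a part of the CRKs stood below their levels in vtc2. Of 30 members, 10 fell (2.2% of all tested genes were called lower) and 0 rose (2.94% were called higher). Over all genes these shares are 380 lower and 508 higher, and after rescaling to TPM the balance turned, to 537 and 321. The median log2 fold change was -0.42, against 0.00 over all genes. In 15 members, or 50%, all libraries labelled OE lay below all vtc2 libraries (13% of all genes), and in 1, CRK21, all lay above (14.3%). A fall of at least 1.5-fold in FPKM + 1 was reached by 12 (2.12% of all genes). This comparison and that of vtc2 with WT share the vtc2 libraries, so the values of both stand side by side and are not independent.

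CRK4, CRK7, CRK13 and CRK36, described above for vtc2 against WT, were among the 10. CRK4 fell from 44.9 ± 8.58 FPKM in vtc2 to 18.5 ± 4.47 in the libraries labelled OE (log2 fold change -1.25, SE 0.19, adjusted p of 0.00794 by limma). Its call held in the 12 fits that left out a library and in the other 10 alternatives (adjusted p from 0.00404 to 0.0452). CRK7 fell to 2.42 ± 0.924, with 1.72, 3.47 and 2.07 FPKM (-1.47, SE 0.25). CRK13 fell to 0.823 ± 0.318, with 0.755, 1.17 and 0.545 FPKM (-1.24, SE 0.22), and CRK36 to 2.33 ± 1.23, with 1.56, 3.74 and 1.69 FPKM (-1.33, SE 0.24). In each of these genes the groups were separate. CRK7 and CRK13 lost the call without OE replicate 1 (adjusted p by limma = 0.0572 and 0.0571, with ranges over all alternatives of 0.0039 to 0.0638 and 0.00497 to 0.0753).

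A further 6 members fell in the libraries labelled OE. CRK37 had the largest fold change of the family, with 0.607, 1.99 and 0.579 FPKM against 2.91, 4.65 and 7.49 in vtc2 (-1.54, SE 0.31, adjusted p of 0.0197 by limma). CRK6, like CRK7 known for a part in the response to extracellular oxygen radicals, was at 10.4, 22.4 and 22.7 in vtc2 and at 6.13, 10.2 and 5.19 in those libraries (-1.22, SE 0.30, adjusted p of 0.0383 by limma). The groups of CRK6 nearly touched, since vtc2 replicate 1 and OE replicate 2 differed little. CRK24, the last gene of the array, was at 2.41, 3.02 and 3.40 in vtc2 and 0.821, 1.78 and 0.807 in those libraries (-0.91, SE 0.21). CRK5, whose loss is known to speed up leaf senescence, was at 5.18, 5.98 and 5.25 in vtc2 and 2.98, 3.71 and 2.30 in those libraries (-0.71, SE 0.14). Both genes were separate between the groups. CRK19 and CRK40 moved less. CRK19 was at 15.9, 17.4 and 16.9 in vtc2 and 12.1, 14.4 and 10.6 in those libraries (-0.42, SE 0.097), and CRK40, the most abundant member, at 62.2, 71.0 and 74.4 against 50.6, 54.3 and 48.0 (-0.43, SE 0.086). Here, too, every vtc2 library lay above every library labelled OE. CRK19 overlaps AT4G23271 on the other strand by 102 bases, and the strand setting of the counting is not given. The calls of CRK5, CRK19, CRK24, CRK36, CRK37 and CRK40 ended without vtc2 replicate 2 or 3 or without OE replicate 1 or 3, and that of CRK6 without any of 7 libraries (adjusted p by limma up to 0.142 over these 7 genes). CRK45 ran from 6.38 to 23.7 in the libraries labelled OE and did not pass (-1.17, SE 0.40, adjusted p of 0.104 by limma). CRK23 was at 2.63, 5.72 and 4.92 in vtc2 and at 1.42, 2.46 and 1.93 in those libraries, separate and not called (-0.85, SE 0.25, adjusted p of 0.0679 by limma). CRK21 stood at 39.6, 36.1 and 38.1 in those libraries, all above vtc2, and was not called (0.29, SE 0.085, adjusted p of 0.0684 by limma).

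The count of 10 was 17 without vtc2 replicate 1 and 15 without OE replicate 2, and 3 without OE replicate 3, vtc2 replicate 2 or vtc2 replicate 3. It was 1, CRK4, without OE replicate 1, and also 1 with only these 2 groups in the fit. Over all genes, 888 calls became 1314 without vtc2 replicate 1, and 125 without OE replicate 1.

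Against WT, the libraries labelled OE held no called CRK by limma, 0 of 30 (0.0174% of all tested genes), and 4 had an unadjusted p below 0.05 (CRK5, CRK16, CRK19 and CRK40; 6.04% of all genes). The median was -0.14 (-0.01 over all genes), with 7 of 30 positive (46.5% of all genes). In CRK16, CRK18 and CRK21 all libraries labelled OE lay below all WT libraries (5.49% of all genes). CRK16 was at 3.13, 3.98 and 3.15 FPKM in WT and 2.94, 2.40 and 2.77 in those libraries (-0.25, SE 0.11). Against vtc4 the libraries labelled OE again held 0 called of 30 by limma (0.0405% of all genes), with 0 at an unadjusted p below 0.05 (5.02%). The median of -0.08 turned to 0.03 without OE replicate 3.

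Taking the 30 tested CRKs as a group, libraries of the same genotype differed. The mean of log2(FPKM + 1) minus the WT mean was 0.07, 0.10 and -0.17 in WT replicates 1 to 3. It was 0.21, 0.46 and 0.58 in vtc2, so vtc2 replicate 1 stood closer to WT replicate 2 than to the other vtc2 libraries. In vtc4 it was 0.03, -0.11 and 0.00. In the libraries labelled OE it was -0.19, 0.11 and -0.32, with replicate 2 above the other two and above all WT libraries. The array (0.16, 0.50 and 0.58 in vtc2) and the CRKs elsewhere (0.27, 0.40 and 0.58) had similar values.

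**Figure D4:**
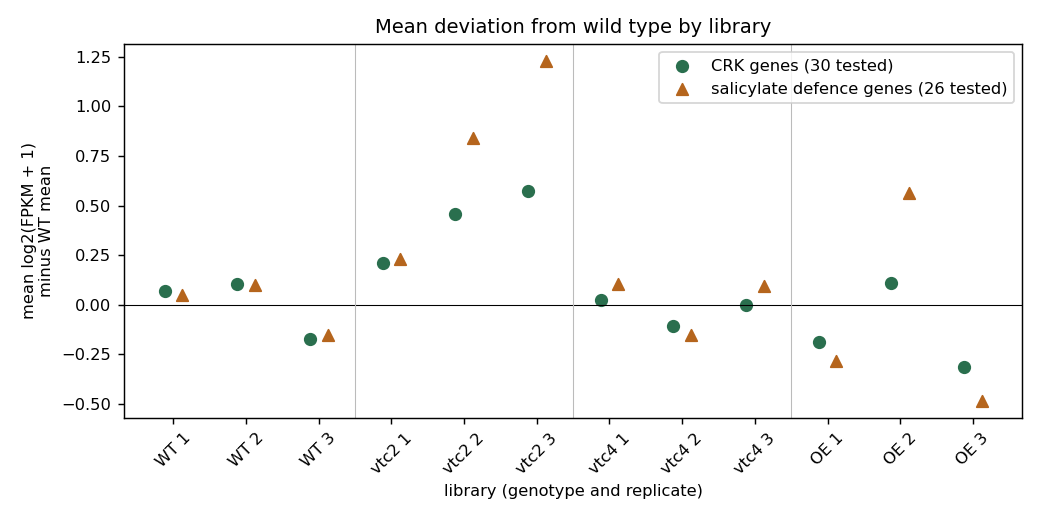
Mean log2(FPKM + 1) minus the WT mean in each library, for the 30 tested CRK genes (circles) and 26 tested salicylate defence genes (triangles). Both are highest in vtc2 replicate 3 and lowest in OE replicate 3, and in OE replicate 2 both stand above the other libraries of that group. The defence genes FMO1 and WRKY38 passed the filter only through vtc2 replicates 2 and 3 and OE replicate 2. ALD1 passed through these and vtc4 replicate 1.

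Salicylate defence genes, many of which are known to be induced along with CRKs, had the same order of libraries at the extremes. Their mean was 0.23, 0.84 and 1.23 in vtc2 replicates 1 to 3 and -0.28, 0.56 and -0.48 in the libraries labelled OE, against -0.15 to 0.10 in WT. Of the 26 tested genes, FMO1 and WRKY38 reached 1 FPKM only in vtc2 replicates 2 and 3 and OE replicate 2. ALD1 did so only in these and in vtc4 replicate 1. These genes thus entered the means through libraries where they were high, and their share in this order was not tested. In vtc2 against WT, 3 of 26 tested genes rose (0.798% of all tested genes) and 0 fell (2.23%). Those that rose were PR5, a marker of salicylate responses (1.57, SE 0.33), DMR6, a salicylate hydroxylase (0.98, SE 0.22), and AED1, a protease of systemic immunity (27.1 ± 7.26 to 68.0 ± 25.8 FPKM). In vtc2 against vtc4, 2 of 26 rose (0.463% of all tested genes), PR5 (1.52, SE 0.33) and ICS1 (1.01, SE 0.21). In the libraries labelled OE against vtc2, 9 of 26 fell (2.2% of all tested genes) and 0 rose (2.94%). Among those that fell was the salicylate synthesis gene ICS1 (17.4 ± 6.29 to 5.26 ± 1.86 FPKM, -1.54, SE 0.21, adjusted p of 0.00404 by limma). The part of salicylate signalling in the CRK values was not tested.

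In a list of receptor, oxidase and kinase genes of immune signalling, none was called in vtc2 against WT. Of 17 tested genes for receptor complexes, oxidases and their kinases, all 17 had positive log2 fold changes in vtc2 against WT (median 0.19), where 50.4% of all tested genes did. None was called by limma, with 6 at an unadjusted p below 0.05 (19.7% of all tested genes). RBOHD, the oxidase that CRK2 phosphorylates, was at 22.5, 19.2 and 19.2 FPKM in WT and 19.99, 24.1 and 24.5 in vtc2, which overlap. In the libraries labelled OE against vtc2, SOBIR1 (-0.85, SE 0.22, adjusted p of 0.047 by limma) and BIR1 (-0.64, SE 0.16, adjusted p of 0.0434 by limma) fell, a receptor kinase of cell death signalling and its negative regulator. Their groups overlapped, since OE replicate 2 of each stood above vtc2 replicate 1.

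Among receptor kinases of another family, the wall-associated kinases, 3 of 5 were tested and 0 were called in vtc2 against WT by limma, with a median of 0.69. An unadjusted p below 0.05 was found for 1 of them (19.7% of all tested genes). WAK3 fell in the libraries labelled OE against vtc2 (-1.29, SE 0.32, adjusted p of 0.0397 by limma), with overlapping groups. The plasmodesmata-located proteins carry the same DUF26 domains without a kinase. Of 7 tested, 1 was positive in vtc2 against WT (50.4% of all tested genes), the median was -0.09, and 0 were called by limma (1 at an unadjusted p below 0.05). The CRK loci outside the 41 that could be tested, CRK43 and CRK44, had log2 fold changes of 0.01 (SE 0.1) and -0.21 (SE 0.11) in vtc2 against WT and were not called.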

How the data were processed

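The authors deposited 1 table of FPKM values with 1 column per library. Their steps used HISAT2 2.1.0, Cuffdiff, Trimmomatic 0.36 and Cufflinks 2.2.1 with build TAIR10, as the submitters' processing notes list them. The annotation, the strand setting and the library normalization are not given in the sources used here. Per the labels' protocols, libraries were stranded mRNA with paired reads of 75 bases.

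The 17290 genes that reached an FPKM of 1 in 3 or more libraries entered limma 3.58.1 (R 4.3.3) as log2(FPKM + 1), with genotype as the only factor, a mean-variance trend and Benjamini-Hochberg adjustment over all of them; 6 comparisons were made. The procedure was tested on simulated data. Replicates were independent pools of plants. The members and gene lists were chosen with earlier results of these data known. Named were members called in any comparison, members with no overlap and a log2 fold change of at least 0.58, and the 8 with the highest mean FPKM. Other members and listed genes were added after their values were seen. Transcripts, neighbours and upstream sequences came from the RefSeq annotation of TAIR10.1, which held all 41 members. Of the table's 33618 IDs, 32217 matched it, and no coordinates of the authors' build were used. Shared windows are stretches of 75 identical bases in the longest transcript of another gene, on either strand. Protein sequences were not used here. Alternatives were other pseudocounts, filters, scalings and models, a replicate block, and fits that left out 1 library.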

Additional observations from a re-analysis of the deposited data

How the results depend on the processing

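Each of 30 gene and comparison pairs under the naming rule kept its direction in every alternative that could be fitted. In all of these pairs the groups were separate, so leaving out a library or changing the pseudocount could not turn the direction. Without the low-value filter, 3 CRKs were called in vtc2 against WT, and 2 at a mean FPKM of at least 5, where fewer members were tested; OE against vtc2 then gave 4. With only the 2 groups compared, the called CRKs were 0 in vtc2 against WT, 1 in OE against vtc2 and 0 in vtc2 against vtc4, and the calls over all genes were 13, 93 and 13 in the same order, with 19 in vtc4 against WT and 7 in OE against WT. In vtc2 against vtc4, the CRK count was 0 with pseudocounts of 0.1 and 0.5, without the filter or without the trend, 3 with TPM, 2 with quantile normalization and 3 with the replicate block. Genes of the table called there were 136 without the filter and 148 without the trend, and 331 in vtc2 against WT without the trend. The cause of these shifts was not tested. With 1 library left out, CRK counts ran from 0 to 10 in vtc2 against WT, 1 to 17 in OE against vtc2 and 0 to 10 in vtc2 against vtc4. Counts of all genes ran from 79 to 727, 125 to 1314 and 7 to 728, from 6 to 12 in vtc4 against WT, 3 to 20 in OE against WT and 7 to 9 in OE against vtc4. The CRK median in vtc2 against vtc4 ran from 0.25 to 0.44. Scaling moved the median of all genes by at most 0.0791, with TPM in vtc2 against WT, and TPM turned the balance of higher and lower calls over all genes in the 3 comparisons that use the vtc2 libraries. Same-numbered libraries of different genotypes correlated at -0.169 to 0.204 in their deviations, over 0.1 in 6 of 18 pairs. The median over pairs with different numbers was -0.034. With 3 libraries per genotype, these values cannot tell whether a number marks a shared batch. Beyond the count named above, the replicate block moved no CRK count by over 1.5 times. FPKM keeps no read totals, so the depth behind weak members is unknown.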
